A study of Rattus norvegicus and Bos taurus with 6 samples.

Results

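Macrophage nuclei of rat mesenteric perivascular adipose tissue (mesPVAT) were examined in the single-nucleus RNA-seq library made on the 10X Genomics platform. A nucleus was counted as a macrophage nucleus where its UMIs over 9 genes (Ptprc, Dock2, Mrc1, Cd163, F13a1, Ms4a4a, Clec10a, C1qa and C1qb, sum A) numbered at least 2 and exceeded its UMIs over 12 genes of adipocytes, mesothelial, endothelial and stromal cells (Plin1, Adipoq, Lipe, Msln, Wt1, Pkhd1l1, Ptprb, Pecam1, Mecom, Pdgfra, Dcn and Fbn1, sum B). A UMI is a molecular tag that counts 1 captured transcript. The members were thus selected on their own measured transcripts, and the levels of these 21 genes are given as a description. The rule found 193 nuclei among the 5887 of the library, and the whole series holds 19424 nuclei in 6 libraries.

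The tissue came from male Dahl SS rats (strain SS/HsdMcwiCrl) housed at 22 °C, with no treatment named and no age given in the sources used here. The depot lies around the mesenteric vessels and is a white fat. Nuclei were sorted on the DNA stain DAPI before loading, and whether this sort kept all cell types alike was not tested. Each of the 6 conditions has 1 library, so no difference was tested, and every 95% interval below covers counting error only. Sums of UMIs carry exact Poisson intervals, shares carry exact Clopper-Pearson intervals, and levels are given as CPM (counts per 1e+06 UMIs of the same group of nuclei).

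Macrophages are among the main leukocytes of fat. They take up lipoproteins, dying cells and other material through scavenger and mannose receptors, break it down in lysosomes, and release complement, chemokines and growth factors. Adipose macrophages that carry the mannose receptor Mrc1 (CD206) and the haemoglobin scavenger receptor Cd163 are known as tissue-resident cells that lie along vessels. Nuclei hold many unspliced and newly made transcripts, and little of the cytoplasmic pool.

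The rule rested mainly on Mrc1 and on C1qa, a chain of the complement starter C1q. Mrc1 gave 200 UMIs in 107 of the 193 nuclei (4177 CPM), against 106 UMIs in the other 5694 nuclei (89.1 CPM). C1qa gave 191 UMIs in 101 nuclei (3989 CPM), against 117 UMIs (98.3 CPM) in the others. Both transcripts were in 42 nuclei, so that many members carried one without the other. Cd163 gave 85 UMIs in 59 nuclei, and F13a1, which encodes the A chain of clotting factor XIII, gave 48 UMIs in 39 nuclei. Ms4a4a, a tetraspan membrane protein of macrophages, was in 28 nuclei, and Clec10a, a galactose-binding lectin, was in 31. The leukocyte phosphatase Ptprc (CD45) was in 30 nuclei, the Rac activator Dock2 in 27 and C1qb in 24. Of the 5 macrophage markers Mrc1, Cd163, F13a1, Ms4a4a and Clec10a, at least 1 was found in 150 members and at least 2 in 78, while 43 members had none. The plot of macrophage genes sets these levels beside genes the rule did not use.

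**Figure D1:**
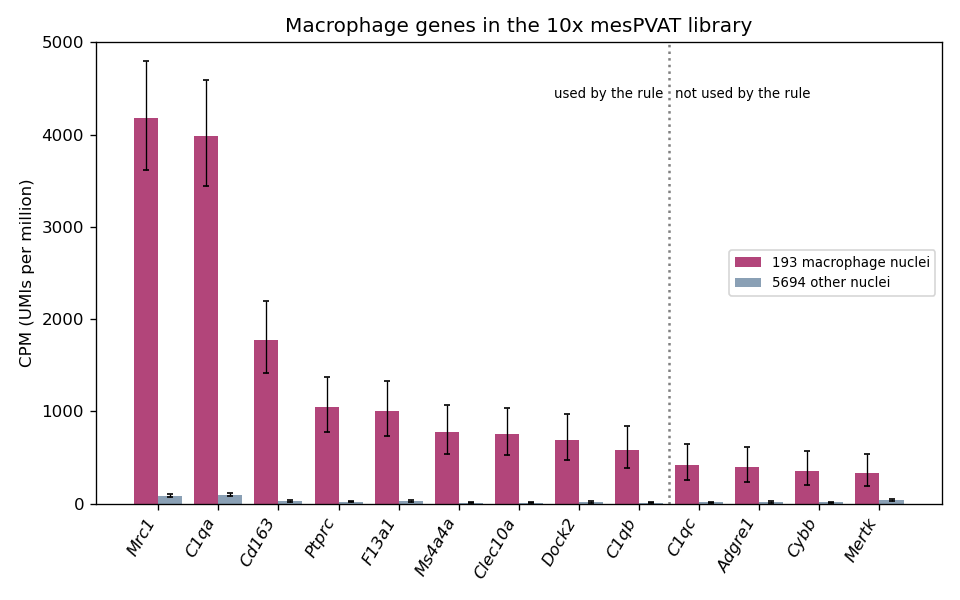
CPM of the 9 genes used by the rule (left of the dotted line) and of 4 macrophage genes it did not use (right), in the 193 macrophage nuclei and the 5694 other nuclei of the 10x mesPVAT library; bars are levels from summed UMIs and error bars are 95% Poisson intervals of counting error. Mrc1 and C1qa reach 4177 and 3989 CPM in macrophage nuclei, and the 4 genes outside the rule lie between 334 and 418 CPM there and at no more than 38.7 CPM in the others. These 4 are among the core genes with the most UMIs in the members, so their high level there is partly a result of that choice. C1qc and Cybb had 17 UMIs each in the other nuclei. Of all 18 core genes, 4 had 0 UMIs in the members.

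The members differed in how firmly they met the rule. A was 2 in 82 of them, 3 or 4 in 65 and 5 or more in 46, with a highest value of 14. A single one of the 9 genes was found in 49 members, 2 genes in 78, and 3 or more in 66. B was 0 in 125 members, and the other 68 held 83 UMIs of the 12 genes between them, 49 of these from the adipocyte genes. Just outside the threshold, 347 nuclei had an A of 1 and 12 had an A of at least 2 that did not exceed B. Adipocyte nuclei, which should lack these transcripts, had an A UMI in 62 of 1260 cases (4.92%, 3.79 to 6.26) at a median of 243 UMIs per nucleus, against a median of 195 in the members. Their definition leaves out nuclei with many A UMIs, which limits this share. The 3810 nuclei given to no class, which also exclude the members, had one in 267 cases (7.01%, 6.22 to 7.87) at a median of 138 UMIs.

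Macrophage genes outside the rule were higher where A was higher. The macrophage core list holds 18 genes, among them Csf1r, Mertk, Adgre1 and Cybb, and none of the 9. Its summed level was 3995 CPM (3108 to 5056) in members with an A of 5 or more, 3084 CPM (2222 to 4168) at an A of 3 or 4, and 2178 CPM (1534 to 3002) at an A of 2. In the nuclei just outside, it was 914 CPM (558 to 1411) where A was 1 and B was 0, and 277 CPM (155 to 457) where A was 1 and B was not 0. It was 2581 CPM (1180 to 4900) in the 12 nuclei with an A of at least 2 and no more than B, a value whose interval overlaps those of all 3 groups of members and that of nuclei with an A of 1 and a B of 0, and 150 CPM (128 to 174) where A was 0. The intervals of neighbouring strata within the members overlap, whereas the interval of members with an A of 2 lies above that of nuclei with an A of 1 and a B of 0. The adipocyte list, 10 genes with none of the 12, ran in the opposite direction, from 1158 CPM (707 to 1788) at an A of 5 or more to 7393 CPM (7234 to 7555) at an A of 0.

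**Figure D2:**
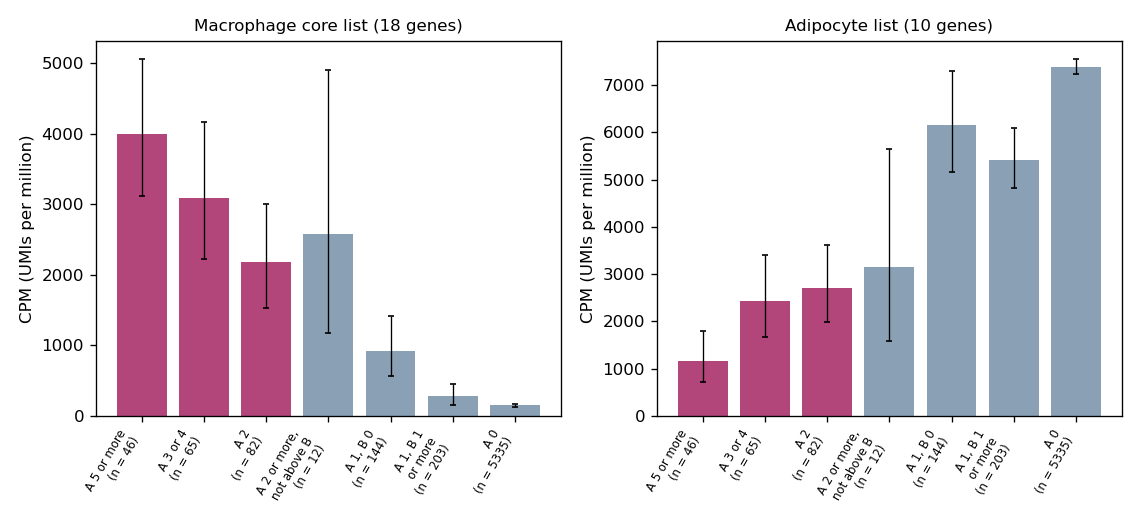
Summed CPM of the macrophage core list (left, 18 genes) and the adipocyte list (right, 10 genes) in nuclei of the 10x mesPVAT library by their UMIs of the macrophage genes (A) and of the genes of other cell types (B); pink bars are members, blue bars are not, and error bars are 95% Poisson intervals. The core list runs from 3995 CPM at an A of 5 or more to 150 CPM at an A of 0, and the adipocyte list from 1158 to 7393 CPM.

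A small set of members stood apart from the name macrophage. After the values were seen, a set of 13 members was picked out as those with a UMI of Retnlg, Bank1, Atp8a2 or Cyp4f18. The 4 genes are among the 20 leading genes described further on. By this choice all their member UMIs lie in the 13 nuclei. Retnlg (resistin-like gamma) gave 39 UMIs in 9 of them, Bank1 (a scaffold protein of B-cell receptor signalling) 27 UMIs in 10, Atp8a2 (a phospholipid flippase) 21 UMIs in 9, and Cyp4f18 (a cytochrome P450 that oxidizes leukotriene B4) 15 UMIs in 8. At least 2 of the 4 genes were found in 10 of the 13 nuclei and all 4 in 5. These 13 nuclei had 4 UMIs of Mrc1, 2 of C1qa, 2 of Cd163 and 0 of F13a1, Ms4a4a and C1qb, while 12 of them had Ptprc, with 28 of its 50 member UMIs. Of the 9 genes that define a member, 7 of the 13 nuclei held Ptprc or Dock2 only, as did 10 of all 193 members.

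The 13 nuclei shared further genes that were not used to pick them. Ccr3, the receptor of the eotaxin chemokines, gave 11 UMIs in 7 of the 13 nuclei and 0 in the other 180 members. Syne1, which encodes a giant nuclear envelope protein, gave 28 UMIs in 9 of them and 0 in the 180. Lta4h, the enzyme that makes leukotriene B4, gave 10 UMIs in 6 of them and 0 in the 180. Srgn, the core protein of granule proteoglycans, gave 16 UMIs in 9 of the 13 nuclei against 2 UMIs in the 180, and Ccl6, a chemokine, gave 23 UMIs in 9 of them against 20 UMIs in 18 of the 180. The receptor subunits Il5ra and Il1rl1 had 3 and 4 UMIs in the 13 and 0 in the 180. These transcripts were not confined to the 13 nuclei. The 5694 other nuclei held 9 UMIs of Il5ra, 10 of Il1rl1, 10 of Ccr3, 38 of Lta4h, 22 of Srgn and 428 of Syne1 (360 CPM), and 36 of them held a UMI of Retnlg, Bank1, Atp8a2 or Cyp4f18. The granule protein genes Epx and Prg2 and the neutrophil genes Csf3r, S100a8 and S100a9 had 0 UMIs in all 193 members. Alox15, also looked up, had 0 UMIs in the members, and Siglec5 had 2 in the 13 nuclei and 16 in the 180. Conversely, Rbpj had 1 UMI in the 13 nuclei and 134 in the 180, and Kcnt2 0 and 71. The 13 nuclei had a median of 406 UMIs, against 192 in the 180. Their pan-leukocyte list stood at 11938 CPM (9436 to 14899) and that of the 180 at 4451 CPM (3831 to 5142), and their resident macrophage list at 1071 CPM (431 to 2207) against 6652 CPM (5889 to 7486). Their macrophage core list, at 3061 CPM (1870 to 4727), overlapped that of the 180, at 3096 CPM (2583 to 3681). These genes were chosen after their values were seen, and no cell type is given to the 13 nuclei. The macrophage core ratio and the leading genes are given with and without them, and for some single genes their part of the UMIs is given.

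The macrophage nuclei were shallow, like the library. Their median depth was 195 UMIs per nucleus (180 to 211), with a range of 85 to 1197, and their median gene count was 162 (147 to 178). The other nuclei stood at 159 UMIs (156 to 162) with 136 genes detected (133 to 138), and adipocyte nuclei at 243 UMIs (232 to 255) with 209 genes detected (199 to 217). The rule itself favours deeper nuclei, because a nucleus needs 2 tagged transcripts to enter. After thinning to 150 UMIs, which left out 55 of the 193 macrophage nuclei and 2594 of the others, the medians were 132 genes (130 to 135) and 134 genes (134 to 135). Macrophage nuclei made up 3.28% of the nuclei (2.84 to 3.77) and held 47877 UMIs, 3.87% of the library's 1237543. Mitochondrial transcripts were 0.169% of their UMIs and 0.171% of those of the others.

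Across genes, 8086 that the rule did not use had at least 20 UMIs over the library. Of these, 1251 were at least 2-fold higher in macrophage nuclei (15.5%) and 2741 at least 2-fold lower (33.9%). A gene near the minimum expects about 1 UMI in the members, where sampling alone can pass either fold. The whole interval of the ratio was at or above 2 for 297 genes (3.67%) and at or below 0.5 for 107 (1.32%). A gene scarce in the other nuclei could reach 20 UMIs only with those of the macrophage nuclei, which favours genes that are high there, and 192 of the 8086 did. Counts within the gene lists therefore cover genes with at least 20 UMIs in the other nuclei alone. Of 7894 such genes outside the rule, 14.0% were at least 2-fold higher, 34.7% at least 2-fold lower and 2.86% had their whole interval at or above 2, at a median log2 ratio of -0.04. The median log2 ratio of all 8086 genes was 0.01, after 0.5 UMIs were added to each count. For the 1331 genes with at least 200 UMIs the median log2 ratio was -0.44, and dividing all ratios by that median gave 1990 genes at least 2-fold higher. That division moves every ratio by the same factor, so it is no test of a single list or gene. As a ratio the median is 0.74, which lies inside the intervals of the lipid-laden macrophage list (0.54 to 0.78) and the trophic factor list (0.51 to 0.86). These 2 intervals therefore no longer excluded 1 after the division. The ratio of ENSRNOG00000068039 was below 1 before the division and above 1 after it. The plot of gene lists gives the ratio of each list.

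**Figure D3:**
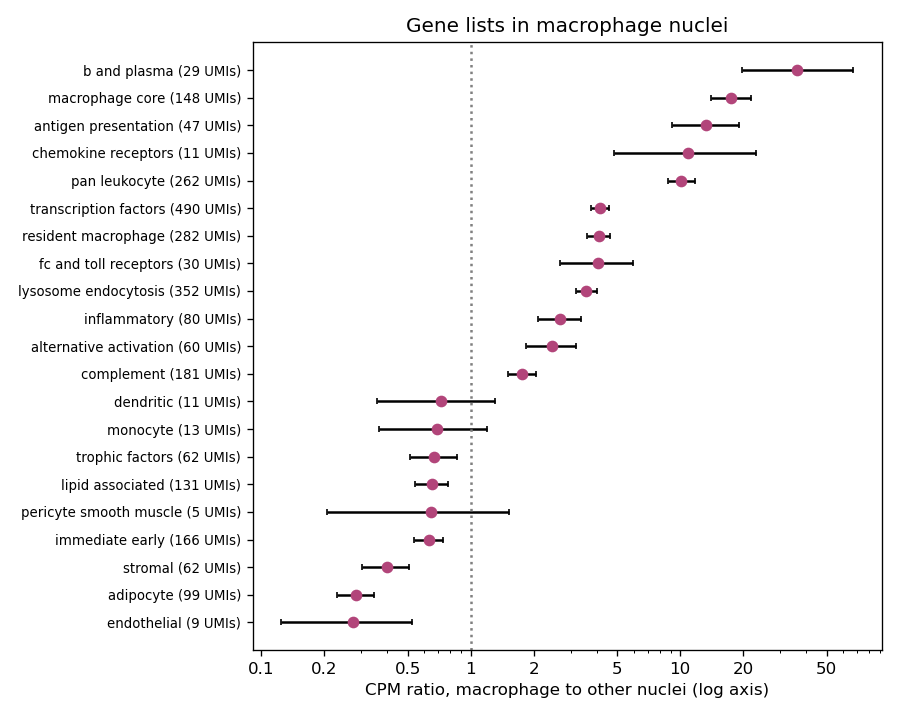
Ratio of the summed CPM of each gene list in the 193 macrophage nuclei to that in the 5694 other nuclei, on a log axis, with 95% intervals of counting error; the UMIs behind each list in macrophage nuclei stand in parentheses, and 5 lists with under 5 such UMIs are not drawn. The macrophage core list lies at 17.5, the adipocyte list at 0.28, and 27 of the 29 UMIs of the B and plasma cell list are those of Bank1.

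Genes of macrophage identity had higher summed levels in the members. Of the 18 core genes, 3 had 20 UMIs in the other nuclei. All 3 were at least 2-fold higher with their whole interval above 2, against 14.0% and 2.86% of all genes. Another 5 reached 20 UMIs only with those of the members and are not counted. The list summed to 148 UMIs (3091 CPM, 2613 to 3631) in the members and 210 UMIs (177 CPM, 153 to 202) in the others, a ratio of 17.5 (14.1 to 21.7), and it stood at 79.3 CPM in adipocyte nuclei. Without the 13 nuclei the ratio was also 17.5 (14.0 to 22.0). Adgre1, the F4/80 antigen, gave 19 UMIs in 17 nuclei, 6 of them in the 13 nuclei, and Cybb, the catalytic subunit of the phagocyte oxidase, 17 UMIs in 16. Mertk, a receptor for dying cells, gave 16 UMIs in 14 nuclei (334 CPM against 38.7). A core UMI was found in 83 of the 193 macrophage nuclei (43.0%, 35.9 to 50.3) and in 189 of the 5694 other nuclei (3.32%, 2.87 to 3.82), among them 28 of 1260 adipocyte nuclei (2.22%), 18 of 388 mesothelial nuclei (4.64%) and 9 of 180 stromal nuclei. At 150 UMIs per nucleus the share was 34.8% (26.9 to 43.4) of 138 macrophage nuclei and 2.45% (1.94 to 3.06) of 3100 others. Of the 18 genes, 4 had no UMI in the members.

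Pan-leukocyte genes were higher beside them. Of 7 genes with 20 UMIs in the other nuclei, all 7 were at least 2-fold higher and 6 had their whole interval above 2. Over all genes these shares were 14.0% and 2.86%. The median log2 ratio of the 7 was 3.84. The list stood at 5472 CPM (4830 to 6177) in macrophage nuclei and 540 CPM (499 to 583) in the others. Arhgap15, a Rac GTPase-activating protein, gave 46 UMIs in 29 nuclei (961 CPM against 53.8), of which 18 UMIs lay in the 13 nuclei described above. Elmo1, which works with Dock proteins in engulfment, gave 43 UMIs in 32 nuclei at a ratio of 4.05 (2.86 to 5.60), which was 3.60 (2.43 to 5.18) without the 13 nuclei. Runx1, a transcription factor of blood cells, gave 36 UMIs in 26 nuclei at a ratio of 14.2 (9.16 to 21.7), which was 11.4 (6.88 to 18.4) without them. Dock8 and Fyb1 gave 23 and 22 UMIs, 7 and 9 of them in the 13 nuclei, and the interval of the ratio of Fyb1 was 11.8 to 40.4 with them and 7.03 to 30.4 without.

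Resident macrophage genes were led by Selenop, Maf and Stab1. Of 7 genes with 20 UMIs in the other nuclei, 5 were at least 2-fold higher, all 5 with their whole interval above 2, and none was lower (median log2 ratio 3.12). Over all genes the shares were 14.0% higher, 2.86% with the whole interval at or above 2, and 34.7% lower. Selenop, which encodes the selenium carrier selenoprotein P, gave 92 UMIs in 60 nuclei (1922 CPM against 169), a ratio of 11.4 (8.79 to 14.6). Maf, a transcription factor of resident macrophages, gave 58 UMIs in 46 nuclei at a ratio of 4.53 (3.36 to 6.01), and the scavenger receptor Stab1 gave 41 UMIs in 34 nuclei at a ratio of 8.63 (5.90 to 12.4). The phospholipid transfer protein Pltp gave 23 UMIs in 21 nuclei. Hmox1, the haem-degrading enzyme that follows Cd163 in haemoglobin clearance, gave 17 UMIs in 11 nuclei (355 CPM against 9.25). It reached 20 UMIs only with those of the members, so it is left out of the count. Timd4, a phosphatidylserine receptor that was looked up after the values were seen, gave 9 UMIs in the members and 2 in all other nuclei. Igf1, with a ratio below 1, and Gas6 are also in this list and were not 2-fold higher. Their values are given below with the trophic factors. Of the 15 list genes found in the matrix, 4 had 0 UMIs in the members. The list stood at 5890 CPM (5223 to 6619) against 1443 CPM (1376 to 1513).

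Genes of endocytosis and the lysosome were higher as a group. Of 13 genes with 20 UMIs in the other nuclei, 10 were at least 2-fold higher, 5 with their whole interval above 2, and 1 was lower (median log2 ratio 1.79). Beside these stand 14.0%, 2.86% and 34.7% of all genes. Lgmn, a lysosomal cysteine protease, gave 78 UMIs in 51 nuclei (1629 CPM against 90.8) at a ratio of 17.9 (13.2 to 24.2). Dab2, an adaptor for clathrin-coated uptake, gave 52 UMIs in 42 nuclei at a ratio of 6.33 (4.58 to 8.63). Psap, the precursor of the saposins, gave 72 UMIs in 49 nuclei at 3.43 (2.64 to 4.39), with 9 of the UMIs in 1 nucleus, and Ctsb gave 28 UMIs at 7.03 (4.45 to 10.8). Lamp1 lay lower, at 2.42 (1.66 to 3.43). Msr1, the class A scavenger receptor for modified lipoproteins, gave 17 UMIs in 14 macrophage nuclei and 5 in all others, a ratio of 84.5 (29.9 to 293). It reached 20 UMIs only with those of the members and is not in the count.

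In the complement list, 2 of 8 genes with 20 UMIs in the other nuclei were at least 2-fold higher and 4 lower, with 14.0% and 34.7% of all genes beside them. Their median log2 ratio was -0.70 while the summed level was higher, at a ratio of 1.76, so the 2 summaries differ in sign. C1qc, the third chain of C1q, gave 20 UMIs in 15 nuclei at 29.2 (14.5 to 59.4). With 17 UMIs in the other nuclei, C1qc is left out of the count. Properdin (Cfp) gave 10 UMIs at 8.57 (3.73 to 18.1). Cfd, the adipokine adipsin, gave 49 UMIs at 1.46 (1.07 to 1.95), and C4a 14 UMIs at 0.49 (0.27 to 0.83). Fc and Toll-like receptor genes were too sparse to read singly, with 1 of 12 genes reaching 20 UMIs. That one, Myd88, had a ratio of 0.78 (0.21 to 2.04), whereas the endosomal receptor Tlr13 gave 10 UMIs in 10 macrophage nuclei against 8 in all others. Over all 12 genes the list gave 30 UMIs in the members, at a summed ratio of 4.05 (2.66 to 5.98).

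Chemokine and cytokine genes were few but included members of both classic activation lists. Ccl24 (eotaxin-2), a ligand of Ccr3, gave 22 UMIs in 18 nuclei (460 CPM against 9.25). All 22 lay in the 180 members outside the set of 13 nuclei, of which 7 held Ccr3. The ratio of the Ccl24 level in the 13 to that in the 180 had an interval of 0 to 1.16, which includes 1. The anti-inflammatory cytokine Il10 gave 12 UMIs in 7 nuclei against 7 UMIs in all others. In the alternative activation list, 1 of 5 genes with 20 UMIs in the other nuclei was at least 2-fold higher and 2 lower (median log2 ratio 0.30). Of the inflammatory genes, 1 of 4 was at least 2-fold higher, namely Ccl2, and 1 was lower (median log2 ratio 0.51). Over all genes these shares were 14.0% and 34.7%. Ccl24 and Nlrp3 reached 20 UMIs only with those of the members and are not in these counts. The summed levels, which include both, had ratios of 2.45 (1.85 to 3.20) for alternative activation and 2.67 (2.09 to 3.36) for inflammatory genes. Nlrp3, the inflammasome sensor, gave 18 UMIs in 16 nuclei (376 CPM against 12.6), and the monocyte attractant Ccl2 gave 16 UMIs in 13 nuclei at 2.86 (1.59 to 4.81). Cxcl1, a neutrophil attractant, gave 32 UMIs in 21 nuclei at 1.73 (1.17 to 2.48). Cxcl2 gave 6 UMIs in 5 of the 180 members, 0 in the 13 nuclei and 4 in all others. Ptgs2 gave 3 UMIs in the 13 nuclei, 0 in the 180 and 75 in all others. Il1b, Il6 and Nos2, looked up afterwards, had 0 UMIs in the members, which allows a level of up to 62.7 CPM each at a floor of 3 UMIs. The chemokine receptor list gave 11 UMIs, at a summed ratio of 10.9 (4.86 to 23.0), and had no gene with 20 UMIs. Ccr2 and Cx3cr1 of that list gave 1 UMI each.

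Antigen presentation genes were found in few macrophage nuclei. No gene of the list had 20 UMIs in the other nuclei, so none was counted, and 13 of 193 nuclei held a UMI of any of the 11 genes (6.74%, 3.63 to 11.2), against 78 of the 5694 other nuclei (1.37%, 1.08 to 1.71), among them 12 of 1260 adipocyte nuclei. At 150 UMIs the shares were 5.80% (2.54 to 11.1) and 1.06% (0.734 to 1.49). Over all 11 genes the list gave 47 UMIs in the members, at a summed ratio of 13.3 (9.11 to 19.1). Cd74, the invariant chain of class II molecules, gave 23 UMIs in 6 nuclei, of which 15 lay in 1 nucleus. The class II genes RT1-DMb, RT1-Bb, RT1-Da and RT1-Db1 gave 7, 6, 5 and 3 UMIs. These 13 nuclei, another set than the 13 above, had 17 UMIs of Mrc1 (3782 CPM) and 12 of C1qa (2670 CPM), and the other 180 had 4218 CPM of Mrc1 and 4126 CPM of C1qa.

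Of the transcription factors, 7 of 9 with 20 UMIs in the other nuclei were at least 2-fold higher and 1 was lower (median log2 ratio 2.19), against 14.0% and 34.7% of all genes. Rbpj, the DNA-binding partner of Notch, gave 135 UMIs in 81 nuclei (2820 CPM against 217), with the ratio between 10.5 and 16.1. Zeb2, a repressor that maintains macrophage identity, gave 174 UMIs in 84 nuclei at 3.22 (2.73 to 3.77). Cebpb, which acts in adipocytes and myeloid cells alike, gave 24 UMIs at 0.88 (0.56 to 1.32). Immediate-early genes, which respond to stress and tissue handling, stood at 3467 CPM (2960 to 4037) against 5499 CPM (5367 to 5634), a ratio of 0.63 (0.54 to 0.74) beside a median of 0.74 over the genes with at least 200 UMIs. Egr1 gave 57 UMIs at 0.60 (0.45 to 0.78) and Fos 20 UMIs at 1.44 (0.87 to 2.25), and of the 7 measured genes 1 was at least 2-fold lower, against 34.7% of all genes, and none 2-fold higher.

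Genes of lipid-laden macrophages were not higher as a group. Of 10 measured genes 2 were at least 2-fold higher and 4 lower (median log2 ratio -0.69), near the 14.0% and 34.7% of all genes, and the list stood at 2736 CPM (2288 to 3247) against 4194 CPM (4078 to 4312). The cholesterol exporter Abca1 gave 19 UMIs in 16 nuclei at 4.45 (2.58 to 7.30), and the apolipoprotein Apoe 15 UMIs in 14 nuclei at 4.90 (2.62 to 8.61). Fabp4 and Lpl, which adipocytes also express, lay at 0.40 (0.29 to 0.54) and 0.61 (0.43 to 0.85). Trem2, Gpnmb and Spp1, looked up afterwards, gave 1, 1 and 0 UMIs in the members. Of the trophic factors, Pdgfc gave 20 UMIs in 15 nuclei at 5.46 (3.19 to 8.93), Igf1 15 UMIs at 0.52 (0.29 to 0.86) and Gas6 13 UMIs at 1.17 (0.62 to 2.03). With 5 genes of that list measured, 1 was higher and 1, Vegfa, was lower.

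Vegfa, the main angiogenic factor of fat, had 0 UMIs in the macrophage nuclei and 919 in the others (772 CPM), with an upper bound of the ratio of 0.10. It was one of the 10 genes with the lowest upper bound of the ratio, and all 10 stood higher in adipocyte nuclei than over all other nuclei. Zfp423 and Ebf1, transcription factors of the adipocyte lineage, had 0 UMIs (upper bound 0.20) and 23 UMIs (ratio 0.16, 0.10 to 0.24). Pfkfb1, a regulator of glycolysis, and Clmn had 0 UMIs, with upper bounds of 0.21 and 0.24. Ankef1, Smoc1, Pdzrn3 and Mical3 had 4, 1, 16 and 7 UMIs, with upper bounds of 0.16, 0.22, 0.23 and 0.24.

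Transcripts of other cell types were low in the members but not absent. The adipocyte list gave 99 UMIs (2068 CPM, 1681 to 2517), led by the lipase Pnpla2 with 26, against 7268 CPM in the others and 11969 CPM in adipocyte nuclei. A UMI of it was found in 63 of the 193 macrophage nuclei (32.6%, 26.1 to 39.7). The stromal list gave 62 UMIs (1295 CPM, led by Col3a1 with 19) against 14692 CPM in stromal nuclei, and the endothelial list 9 UMIs (188 CPM, led by Emcn with 3) against 5592 CPM in endothelial nuclei. The mesothelial list gave 0 UMIs and the pericyte and smooth muscle list 5. Against adipocyte nuclei alone, the intervals of the stromal ratio (0.65 to 1.12) and the endothelial ratio (0.31 to 1.37) included 1. The rule limits these transcripts through B, and their part in the results was not tested.

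Markers of other leukocytes differed between lists. The T and NK cell list of 19 genes gave 1 UMI, of Skap1, and 18 of its genes were at 0. The mast cell list gave 0 UMIs, which allows up to 62.7 CPM, and the neutrophil list 1 UMI, of Cxcr2. The B and plasma cell list gave 29 UMIs, 27 of Bank1 and 2 of Cd22 in 1 nucleus, and 7 of its 9 genes were at 0. Its ratio of 36.0 (19.7 to 67.2) was the highest of the lists and rested on Bank1. By the choice of the set of 13 nuclei, all member UMIs of Bank1 lay there. The monocyte list gave 13 UMIs, 10 of them Nr4a1, at a ratio of 0.69 (0.37 to 1.19), and none of its 3 measured genes was 2-fold higher. The dendritic cell list gave 11 UMIs, 7 of them Flt3, at a ratio of 0.72 (0.36 to 1.31). The intervals of both ratios include 1. Against adipocyte nuclei alone the ratios lay above 1, at 1.43 (0.72 to 2.61) for the monocyte list and 2.32 (1.06 to 4.67) for the dendritic list, so neither has a direction that holds for both reference groups. Flt3 stood at 709 CPM in mesothelial nuclei, which are among the other nuclei, and at 53.8 CPM in adipocyte nuclei. Of the cell cycle genes, Mki67 and Top2a gave 1 UMI each and the other 4 were at 0.

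The 20 leading genes outside the rule, those with the highest lower bound of the ratio, were chosen from these same nuclei and are given as a description. Of the 20, 6 had at least 20 UMIs in the other nuclei (Retnlg, Kcnt2, Cd83, Ccl6, Negr1 and Hdac9), and the rest reached that minimum only with the UMIs of the members. They included genes of uptake and recognition besides Msr1. Fcna, a ficolin that binds microbial sugars and starts the lectin pathway, gave 23 UMIs in 18 nuclei at 40.8 (20.1 to 85.8). The pseudogene Fcgr2a-ps1 gave 19 UMIs in 17 nuclei, 7 of them in the 13 nuclei (ratio 52.5 with these and 38.4 without), a value that is uncertain because Fc receptor genes have near-identical copies. Syk, the kinase below Fc and lectin receptors, gave 13 UMIs in 13 nuclei. Cd83, an activation marker of myeloid cells, gave 30 UMIs in 22 nuclei at 37.3 (20.5 to 69.2), all among the other 180.

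Other leading genes encode channels, enzymes and adhesion molecules. Kcnt2, a sodium-activated potassium channel, gave 71 UMIs in 38 nuclei (1483 CPM against 48.8) at 30.4 (21.2 to 43.8). Hdac9, a class IIa histone deacetylase, gave 100 UMIs in 60 nuclei (2089 CPM against 93.3) at 22.4 (16.9 to 29.6). Negr1, a cell adhesion molecule better known in neurons, gave 32 UMIs in 24 nuclei at 29.4 (17.1 to 51.1), and the flippase Atp8b4 gave 15 UMIs in 14 nuclei. Tmem71 gave 13 UMIs, 11 of them in the set of 13 nuclei. With those 13 nuclei left out, 13 of the 20 genes stayed among the leading 20. The plot of leading genes divides the UMIs of each gene between the 13 nuclei and the other 180.

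**Figure D4:**
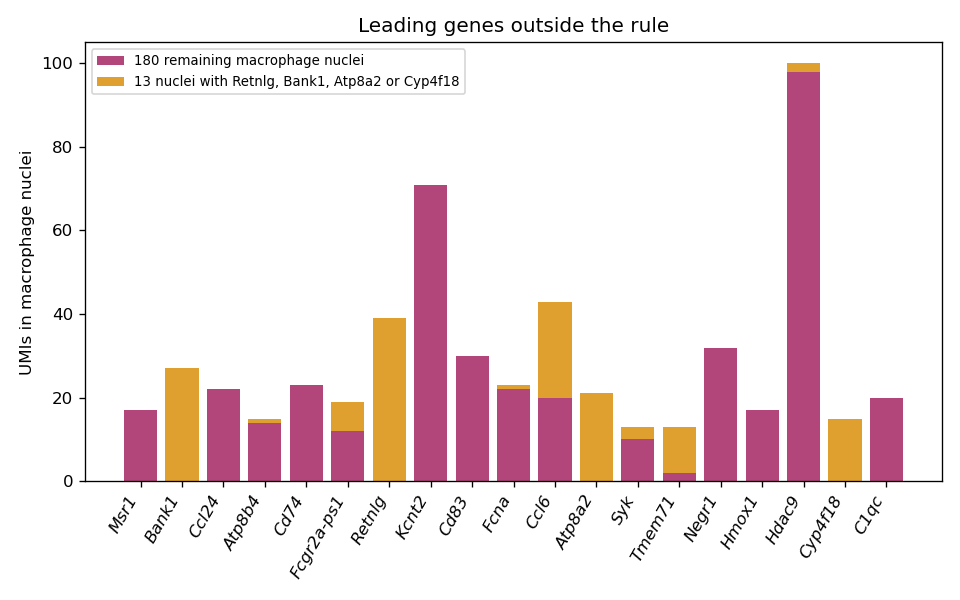
UMIs of 19 of the 20 leading genes outside the rule in the 193 macrophage nuclei, ordered by the lower bound of their CPM ratio to other nuclei, of which 6 reached 20 UMIs in the other nuclei alone; orange marks the 13 nuclei with a UMI of Retnlg, Bank1, Atp8a2 or Cyp4f18 and pink the remaining 180. Those 4 genes are wholly orange by the choice of the set, Tmem71 is orange for 11 of 13 UMIs, and Kcnt2, Cd83, Negr1 and Ccl24 are wholly pink.

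Promoters were read for the leading genes from RefSeq (GRCr8), from 250 bases before to 50 after the annotated start, and searched for GAGGAA, the core bound by PU.1 and other ETS factors of myeloid cells, on both strands. Of the 20 genes, 13 were matched, with 20 promoters. The letters were found in 6 of the 13 genes (46.2%, 19.2 to 74.9) and in 8021 of 27457 genes with any promoter listed (29.2%), and by promoter in 35.0% and 27.6%. The interval of the first share holds the second. Ccl24 (chr12:26737173-26737472, plus strand) and Fcna (chr3:28847188-28847487, minus strand) are shown because they carry the letters more than once, with matches in either direction in capitals (TTCCTC on the opposite strand).
Ccl24: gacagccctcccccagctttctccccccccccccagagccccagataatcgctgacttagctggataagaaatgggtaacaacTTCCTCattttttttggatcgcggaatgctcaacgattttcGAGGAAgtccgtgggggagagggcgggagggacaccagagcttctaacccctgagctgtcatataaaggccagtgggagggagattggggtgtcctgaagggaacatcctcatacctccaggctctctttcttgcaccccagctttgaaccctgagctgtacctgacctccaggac
Fcna: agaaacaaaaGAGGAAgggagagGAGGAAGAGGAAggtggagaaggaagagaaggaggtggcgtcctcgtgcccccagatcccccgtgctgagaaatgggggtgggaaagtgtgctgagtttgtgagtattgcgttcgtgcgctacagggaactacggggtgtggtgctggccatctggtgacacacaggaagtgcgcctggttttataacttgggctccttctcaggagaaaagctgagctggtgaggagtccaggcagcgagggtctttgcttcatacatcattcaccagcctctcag
A match describes the letters of the window and not a bound site.

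By number of UMIs, 5 unnamed transcripts stood before any macrophage gene. The 10 genes with the most UMIs were AABR07015057.1 with 1841, ENSRNOG00000062930 with 1354, ENSRNOG00000070284, AABR07000398.1 and ENSRNOG00000068039 with 535, 529 and 519, then Mrc1, C1qa, Zeb2, Zfp36 and Snrnp70. The first 5, which carry clone names or identifiers in place of a gene symbol, took 9.98% of the UMIs in macrophage nuclei and 8.45% in the others. Zfp36, which destabilizes inflammatory transcripts, gave 147 UMIs at a ratio of 1.11 (0.94 to 1.31), and Snrnp70, a splicing protein, 138 UMIs at 0.56 (0.47 to 0.67).

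The same rule was applied to the 4 rat libraries made on the Parse Biosciences platform, which differ from the 10x library in kit, isolation, named genome build and batch, so the values stand side by side only. No barcode is shared with the 10x library. The rule found 101 of 3028 nuclei (3.34%, 2.72 to 4.04) in the Parse library labelled mesPVAT, 58 of 2805 (2.07%) in retroperitoneal (RP) fat, 208 of 2708 (7.68%) in thoracic aortic PVAT (taPVAT) and 69 of 2699 (2.56%) in subscapular brown fat (BAT). Their median UMIs were 526, 368.5, 768 and 986, against 342, 211, 1308 and 1743.5 in the other nuclei of each library. Any of the 7 genes other than Ptprc and Dock2 was found in 62.4%, 63.8%, 52.4% and 44.9% of these nuclei, and in 94.8% of the 10x members. The macrophage core list had ratios of 2.63 (1.90 to 3.55) for Parse mesPVAT and 2.21 (1.43 to 3.29) for RP fat. The same ratio was 11.5 (10.2 to 12.9) for taPVAT and 18.5 (15.6 to 21.9) for BAT.

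The leading genes of the 10x members were also read in the Parse libraries, whose nuclei had no part in choosing them. In taPVAT 12 of 13 with at least 20 UMIs in the other nuclei were at least 2-fold higher in the nuclei that met the rule, against 23.0% of all genes, and in BAT 11 of 12, against 27.7%. In Parse mesPVAT 4 of 13 were, against 15.1%, and in RP fat 2 of 10, against 9.83%. Kcnt2 had ratios of 10.4 in taPVAT, 14.8 in BAT, 1.87 in Parse mesPVAT and 0.83 in RP fat. Hdac9 had ratios of 7.34, 6.86, 2.08 and 1.07 in the same order. C1qa gave 16, 3, 1 and 0 UMIs in taPVAT, BAT, Parse mesPVAT and RP fat, and 191 in the 10x members. Its low count there was not tested for a cause.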

How the data were processed

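Single-nucleus RNA-seq of the 10x mesPVAT library was used, with 4 rat Parse libraries beside it. The authors deposited UMI counts per gene and barcode, without normalization, from Cell Ranger 7.1.0 (10x, Rnor_6.0 named in the study's supplementary methods) or split-pipe (Parse, GRCr8). Gene identifiers in the 10x files may belong to a later annotation than Rnor_6.0, which was not settled, and no coordinates of that library were used. FastQC and Scanpy stand in the submitters' processing notes. The cow library was not analysed here. The rule was applied to all 5887 deposited barcodes (median 161 UMIs, 84 to 5014), with no further filter. No doublet caller was run, and the condition on B is the only guard.

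Counts were summed over nuclei and given as CPM, and a ratio of CPM carries an exact conditional binomial interval of 95%. Genes with at least 20 UMIs over the library entered the counts, called at a ratio of 2 or 0.5, and counts within lists and in the Parse libraries used genes with 20 UMIs in the other nuclei alone, a minimum chosen after seeing the data. Adipocyte, mesothelial, endothelial and stromal nuclei held at least 2 UMIs of their own marker genes in B and more than of all other rule genes. Nuclei were thinned to 150 UMIs with seed 20. The members, the 26 gene lists and the tests were chosen with earlier results of these data known. Named genes are those of the rule, up to 5 per list with the most member UMIs, the 20 with the highest lower bound and the 10 with the lowest upper bound of the ratio, and the 10 with the most UMIs. Others are marked as chosen afterwards, and some genes named by the rule are not reported here. Of 284 list genes, 13 were not analysed here. Python 3.11.15, numpy 2.4.6, pandas 2.3.3, scipy 1.17.1 and matplotlib 3.10.9 were used, and the ratios were checked on simulated counts.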

Additional observations from a re-analysis of the deposited data

How the results depend on the processing

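The ratio of the macrophage core list stayed above 1 under all 12 alternatives, from 14.0 to 39.0. It was 39.0 against adipocyte nuclei alone, 23.9 in nuclei with at least 200 UMIs and 14.0 as the mean of shares per nucleus. With at least 3 UMIs of the 9 genes, 111 macrophage nuclei remained (1.89% of nuclei), with medians of 224 UMIs and 183 genes. With no UMI of the 12 genes of other cell types there were 125 (2.12%). Among nuclei with at least 200 UMIs there were 92 (4.38%), with medians of 298 UMIs and 248 genes. Thinning to 100 UMIs gave a median of 90 genes. The number of genes at least 2-fold higher was 660 against adipocyte nuclei, 636 with a minimum of 50 UMIs, 2744 with no minimum beyond 1, 586 at a fold of 3, and, as alternatives chosen after seeing the data, 297 with the whole interval at or above 2 and 1990 with ratios divided by the median of genes with at least 200 UMIs. The other 38 of 58 values, among them the 1103 genes at least 2-fold higher with the minimum in the other nuclei alone, also chosen after seeing the data, and those without the 13 nuclei that hold Retnlg, Bank1, Atp8a2 or Cyp4f18, stayed within their interval or within 1.5 times the main count. Against adipocyte nuclei, 15 of 26 list ratios stayed within their interval, and the intervals of the stromal (0.86), endothelial (0.69) and mesothelial (0 UMIs) lists no longer excluded 1. The dendritic list turned from 0.72 to 2.32 and the monocyte list from 0.69 to 1.43, and the cause was not tested. The library's depth limits single genes, since 0 UMIs in the members allows up to 62.7 CPM at a floor of 3 UMIs. No paired analysis was possible because each group holds 1 library.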
